A study of Mus musculus with 9 samples.

Results

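Interferon regulatory factors (IRFs) and STATs are the transcription factors that carry a macrophage's response from lipopolysaccharide (LPS), a bacterial membrane component, to interferon and on to the genes that interferon induces. The 9 genes described here are Irf1, Irf2, Irf3, Irf5, Irf7, Irf9, Stat2, Stat3 and Ifnb1, the gene of interferon beta. They were found by their symbols in GENCODE M21 among 28137 Ensembl gene identifiers of the deposited values, and all 9 were present. RNA-seq was done on 9 libraries of RAW264.7, a mouse macrophage line derived from an Abelson virus leukemia, in 3 groups of 3 libraries. The groups carry the labels NC-siRNA (a negative control siRNA), SFRP2-siRNA and RAB6A-siRNA. According to the labels, cells of every group received siRNA at 60 nM for 6 h, complete medium for 12 h and LPS at 100 ng/ml, with RNA taken after 24 h of polarization. The titles give a time of 6 h, and the study's methods give other siRNA and recovery conditions and add interferon gamma to the LPS, so that the stimulus cannot be settled here. No library without LPS was analysed here, and all values describe stimulated cells. The labels do not say whether the 3 libraries of a group are separate cultures, so that p-values measure the spread between these libraries, which may be technical. The libraries with SFRP2 siRNA are titled siRNA-1 to siRNA-3, names that the study's supplement gives to 3 different siRNAs. Whether they are replicates of a single siRNA is not known, and the spread within that group may hold differences between siRNAs.

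As background, LPS is sensed by TLR4, whose adaptor TRIF leads through the kinase TBK1 to the phosphorylation of IRF3, and IRF3 together with NF-kB switches on Ifnb1. Secreted interferon beta acts on its receptor, where JAK1 and TYK2 phosphorylate STAT proteins, and STAT2 joins IRF9 in the complex ISGF3. ISGF3 binds the interferon-stimulated response element (ISRE), and Irf7 and Irf9 are themselves among its target genes. IRF5 works downstream of MyD88 and drives inflammatory cytokines, IRF1 and its antagonist IRF2 share binding sites, and STAT3 relays IL-6 and IL-10.

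Stretches from upstream of 4 of these genes are shown because each holds a match to a motif of this circuit. They come from RefSeq promoters on the build GRCm38.p6, where all 9 genes had an entry (Irf1 and Irf9 had 2, and the first of Irf1 is shown), and capitals mark the matches. The motifs searched on both strands of the 250 bases before the start were the ISRE core GAAANNGAAA, the STAT site TTCNNNGAA (GAS) and the NF-kB motif.
Irf1: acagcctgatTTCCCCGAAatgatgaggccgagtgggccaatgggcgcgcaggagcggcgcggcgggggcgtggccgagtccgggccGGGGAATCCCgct
Irf2: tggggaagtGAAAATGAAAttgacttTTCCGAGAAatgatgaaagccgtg
Stat2: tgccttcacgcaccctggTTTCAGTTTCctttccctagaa
Ifnb1: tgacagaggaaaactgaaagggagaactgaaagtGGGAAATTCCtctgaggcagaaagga
The Irf1 stretch, chr11:53769914-53770013 on the + strand, has a GAS match that begins 90 bases and an NF-kB match that begins 13 bases before the start. The Irf2 stretch, chr8:46739495-46739544 on the + strand, has an ISRE core that begins 241 bases and a GAS match that begins 224 bases before the start, and an NF-kB match lies 17 bases before the start, outside the stretch. The Stat2 stretch, chr10:128270258-128270297 on the + strand, has an ISRE core on the opposite strand, 222 bases before the start. The Ifnb1 stretch, chr4:88522885-88522944 on the - strand, has an NF-kB match that begins 116 bases before the start. Among 32851 promoters of the same length, 2.98% held the ISRE core, 7.02% the GAS motif and 3.90% the NF-kB motif. Of the 9 genes, 2 held the first, 2 the second and 3 the third. Irf7 and Irf9, named above as ISGF3 targets, held no match to any of these motifs in the 250 bases searched. The 2 RefSeq starts of Irf9 lie 414 and 1008 bases inside the gene as annotated in GENCODE M21. Bases upstream of its GENCODE start were therefore not searched. Ifnb1 held no exact match to the ISRE core there, and looser forms of that motif were not searched. A match is a description of the letters only, and binding was not measured.

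The 9 libraries hold 32758729 to 47149258 reads each, as the whole-number steps of low values show. The NC siRNA libraries were the largest. SFRP2 siRNA replicate 3 (34743304 reads) was smaller than RAB6A siRNA replicates 1 and 2 (36344965 and 37833882). Values are FPKM, fragments scaled to exon length and to the size of the library. The length that gave whole numbers of reads takes all annotated exons of a gene together, 3776 bases for Irf7, its whole span. Levels and shares compared between genes depend on such lengths, and the length behind the values of Irf1 is not known. All 10 macrophage markers examined had a mean FPKM of at least 1, and their summed FPKM was 4609 to 5081 in the NC siRNA libraries, 4079 to 4409 with SFRP2 siRNA and 4017 to 4186 with RAB6A siRNA. None of the B cell, fibroblast, epithelial, endothelial or neutrophil markers reached a mean FPKM of 1. Of the T cell markers Lck did, at a mean of 4.94. The summed markers of plasmacytoid dendritic cells, led by Bst2, which is also an interferon-stimulated gene, ranged from 223 to 248, from 170 to 194 and from 365 to 521 FPKM in the 3 groups. The part of these markers in the results was not tested. In such bulk samples, fewer cells with a transcript and less transcript per cell cannot be told apart. The targeted gene Sfrp2 lay at 2 to 4 reads in every library. Its FPKM was higher, not lower, in the libraries labelled SFRP2-siRNA, at 0.0401 ± 0.0116 against 0.0213 ± 0.00140 in the NC siRNA libraries (SD, n = 3 each). These FPKM values did not overlap (p = 0.1 in a two-sided exact permutation test, which cannot go lower with 3 libraries in each group). The read numbers did overlap, at 4, 4 and 2 with SFRP2 siRNA and 2, 2 and 2 with NC siRNA. Knockdown of Sfrp2 was thus not detectable at this depth, and the SFRP2 siRNA group is named here by its label alone. Rab6a, the other target, was 25.7 ± 1.48 FPKM (SD, n = 3) with NC siRNA and 20.8 ± 0.445 FPKM with RAB6A siRNA, and fell by 0.31 on the log2 scale (limma, adjusted p = 0.0024). The median absolute log2 fold change over all genes tested was 0.63, so that this fall alone does not show a knockdown. The RAB6A siRNA group is therefore also named by its label.

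With RAB6A siRNA, Irf7 made up a larger share of the summed FPKM of the 6 IRF genes described here. Irf7 rose, while Irf1, Irf9, Irf5, Irf2 and Stat3 fell, and Irf3, Stat2 and Ifnb1 did not pass the test. Thus 1 of the 9 genes was higher and 5 were lower than with NC siRNA, at an adjusted p under 0.05 in limma's test on log2(FPKM + 0.1), adjusted over all 12712 genes tested. This comparison moved much of the transcriptome, since 37.6% of all genes tested were called higher and 36.5% lower, and 6 of 9 called is no more than that background. The groups did not overlap in 6 of the 9 genes and in 77.4% of all genes. The median log2 fold change was -0.34 over the 9 genes and 0.03 over all genes. The members are therefore described one by one through their levels.

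Irf7, the IRF that amplifies the interferon response and is itself induced by it, had the highest FPKM of the 9 genes in every library. Its identifier is ENSMUSG00000025498, and it lies on chromosome 7 from 141262706 to 141266481 (- strand, GRCm38 in GENCODE M21, as for all positions of genes given here). Its FPKM was 136, 137 and 145 with NC siRNA, 124, 120 and 115 with SFRP2 siRNA, and 247, 243 and 198 with RAB6A siRNA. All 3 RAB6A siRNA libraries lay above the other 6, and replicate 3 was the lowest of them. The mean rose 1.65-fold, from 139 ± 5.37 to 229 ± 27.2 FPKM (SD, n = 3 each), a log2 fold change of 0.71 with a 95% interval from 0.50 to 0.93 (limma, standard error 0.09, adjusted p = 2.7e-04). Of all genes tested, 45.3% had a larger absolute change.

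Irf1, which is induced by interferon gamma and NF-kB and drives antigen presentation genes, showed the largest change among the 8 genes with a mean FPKM above 1. Its identifier is ENSMUSG00000018899, and it lies on chromosome 11 from 53770014 to 53778374 (+ strand). Its FPKM was 31.3, 31.7 and 31.0 with NC siRNA, 26.8, 25.02 and 24.3 with SFRP2 siRNA, and 15.1, 14.9 and 14.1 with RAB6A siRNA. The 3 groups were fully separate, in the order NC, SFRP2 and RAB6A siRNA. The mean with RAB6A siRNA was 2.13-fold below that with NC siRNA, a log2 fold change of -1.09 with an interval from -1.21 to -0.97 (limma, standard error 0.05, adjusted p = 2.9e-06). It was the 1 member that also passed an absolute log2 fold change of 1, against 30.1% of all genes tested.

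Irf2 (ENSMUSG00000031627, chromosome 8 from 46739732 to 46847458, + strand) is the constitutive repressor that competes with IRF1 for its sites. It had a FPKM of 6.13, 6.86 and 6.51 with NC siRNA, 6.69, 7.30 and 7.71 with SFRP2 siRNA, and 4.80, 4.71 and 5.91 with RAB6A siRNA. The RAB6A siRNA libraries lay below the other 6, and replicate 3 came closest to them. Irf2 fell by 0.34 on the log2 scale against NC siRNA (limma, standard error 0.10, adjusted p = 0.017). This call was lost in 4 of 17 alternatives, over which its adjusted p was 0.0019 to 0.159, namely with a correction for GC content and length (log2 fold change -0.15), without NC siRNA replicate 2 (adjusted p = 0.062), without RAB6A siRNA replicate 1 (adjusted p = 0.057) and without RAB6A siRNA replicate 2 (adjusted p = 0.058). The ratio of Irf1 to Irf2 within a library was 4.83 ± 0.252 with NC siRNA, 3.53 ± 0.437 with SFRP2 siRNA and 2.90 ± 0.441 with RAB6A siRNA (SD, n = 3 each). Neither siRNA group overlapped the control in this ratio. With SFRP2 siRNA the same held for the ratios of Irf7 to Irf3, Irf7 to Irf5 and Irf9 to Stat2. The ratios of Irf7 to Irf1 and Stat2 to Stat3 overlapped there. Among all single genes tested, 24.7% did not overlap the control with SFRP2 siRNA and 77.4% with RAB6A siRNA.

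**Figure D1:**
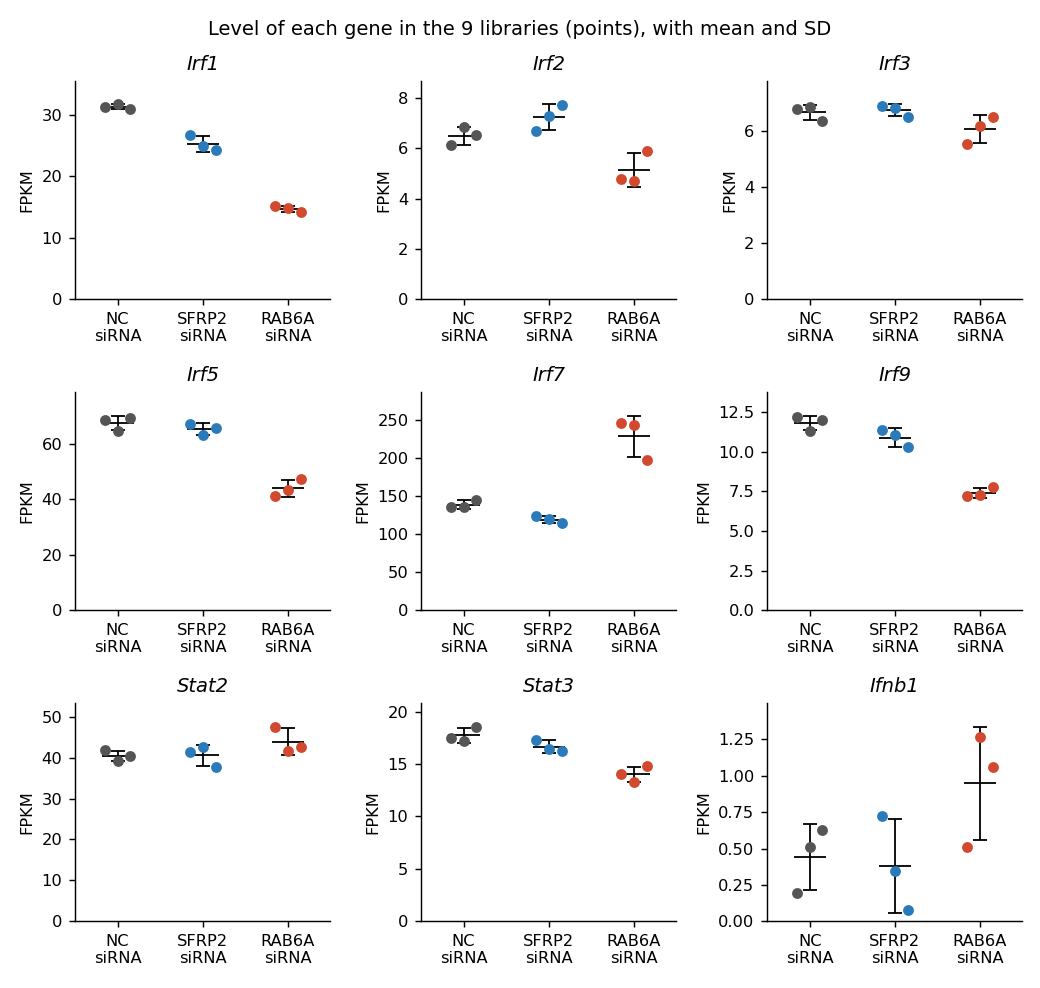
FPKM (y axis, from 0, a scale of its own in each panel) of the 9 genes in each library, by siRNA group (x axis). Points are libraries in the order of their replicate numbers, and black lines give the mean and SD of 3 libraries. Irf7 is higher with RAB6A siRNA (198 to 247 FPKM) than in the other 6 libraries, Irf1 falls into 3 separate groups, and Ifnb1 overlaps between all groups.

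Irf5 (ENSMUSG00000029771, chromosome 6 from 29526625 to 29541871, + strand), a driver of Il6, Tnf and Il12b in macrophages, had the next highest FPKM of the 6 IRF genes described here, in every library. Its FPKM was 68.7, 64.5 and 69.4 with NC siRNA, 67.3, 63.2 and 65.6 with SFRP2 siRNA, and 41.3, 43.4 and 47.3 with RAB6A siRNA. The NC and SFRP2 siRNA libraries overlapped and the RAB6A siRNA libraries lay below both. Irf5 fell by 0.62 on the log2 scale against NC siRNA (limma, standard error 0.07, adjusted p = 1.0e-04). Of its exon bases, 14.1% overlap Tnpo3 on the opposite strand, and the strand used in counting is not stated in the sources used here. Reads of these bases may thus be Tnpo3's or may have been left out of the count of Irf5.

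Irf3 (ENSMUSG00000003184, chromosome 7 from 44997648 to 45002848, + strand), the factor that the LPS receptor activates through phosphorylation, did not pass the test in any comparison. Its FPKM was 6.79, 6.85 and 6.34 with NC siRNA, 6.89, 6.81 and 6.49 with SFRP2 siRNA, and 5.52, 6.17 and 6.50 with RAB6A siRNA, and the groups overlapped. The log2 fold change of RAB6A against NC siRNA was -0.13 with an interval from -0.32 to 0.05 (limma, adjusted p = 0.162). Phosphorylation of IRF3 was not measured.

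Irf9 (ENSMUSG00000002325, chromosome 14 from 55603571 to 55610030, + strand) is the DNA-binding subunit of ISGF3. It had a FPKM of 12.2, 11.3 and 12.0 with NC siRNA, 11.4, 11.01 and 10.3 with SFRP2 siRNA, and 7.17, 7.24 and 7.76 with RAB6A siRNA. It fell by 0.67 on the log2 scale against NC siRNA (limma, standard error 0.06, adjusted p = 5.1e-05), and its RAB6A siRNA libraries lay below the other 6. Its partner Stat2 (ENSMUSG00000040033, chromosome 10 from 128270559 to 128292849, + strand) had a FPKM of 41.7, 39.2 and 40.3 with NC siRNA, 41.4, 42.5 and 37.7 with SFRP2 siRNA, and 47.5, 41.5 and 42.6 with RAB6A siRNA. The Stat2 libraries of all groups overlapped, and the log2 fold change of RAB6A against NC siRNA was 0.12 with an interval from -0.04 to 0.27 (limma, adjusted p = 0.148). Stat2 passed the test in the same direction under quantile normalization (adjusted p = 0.0080) and with the GC and length correction (adjusted p = 0.0061), and over 17 alternatives its adjusted p was 0.0061 to 0.408. The ratio of Irf9 to Stat2 was 0.292 ± 0.00505 with NC siRNA, 0.269 ± 0.00845 with SFRP2 siRNA and 0.169 ± 0.0162 with RAB6A siRNA (SD, n = 3 each). This ratio between subunits of a single complex was thus lower in each RAB6A siRNA library than in any other library.

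Stat3 (ENSMUSG00000004040, chromosome 11 from 100885098 to 100939540, - strand) mediates the anti-inflammatory signal of IL-10 and the acute-phase signal of IL-6. It had a FPKM of 17.5, 17.2 and 18.6 with NC siRNA, 17.3, 16.5 and 16.2 with SFRP2 siRNA, and 14.0, 13.3 and 14.8 with RAB6A siRNA. It was lower in each RAB6A siRNA library than in the other 6, and fell by 0.34 on the log2 scale against NC siRNA (limma, standard error 0.06, adjusted p = 0.0019). Of all genes tested, 70.5% had a larger absolute change.

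Ifnb1, the gene of interferon beta, gave few reads in every group. Its identifier is ENSMUSG00000048806, and it has a single transcript of 750 bases on chromosome 4 from 88522025 to 88522774 (- strand). Its FPKM was 0.192, 0.509 and 0.627 with NC siRNA, 0.723, 0.343 and 0.0768 with SFRP2 siRNA, and 0.514, 1.27 and 1.06 with RAB6A siRNA, from 2 to 36 reads per library. The groups overlapped, and the SFRP2 siRNA group spread most relative to its mean, with its replicate 3 the lowest of the 9 libraries. All 9 read numbers of Ifnb1 were even, and 69.8% of recovered numbers from 1 to 40 were even in all genes, so that both mates of a pair may have been counted and the independent fragments may be fewer than the reads. The log2 fold change of RAB6A against NC siRNA was 0.97 with an interval from -0.06 to 2.00 (limma, standard error 0.44, adjusted p = 0.079). Ifnb1 passed the filter of a mean FPKM of 0.5 in this comparison only through the RAB6A siRNA group, at 0.947 FPKM. With NC siRNA it averaged 0.443 FPKM, under that filter. An exact two-sided permutation test on FPKM gave p = 0.2, where 0.1 is the lowest possible. In limma, the test was passed without RAB6A siRNA replicate 1 (log2 fold change 1.32, adjusted p = 0.030) and with the replicate number as a block. Over 16 alternatives the adjusted p of Ifnb1 was 0.015 to 0.465. Its log2 fold change was 0.39 to 1.32 over these alternatives, with 0.39 under quantile normalization, 0.41 with the GC and length correction, 0.42 at a pseudocount of 1 and 0.57 without NC siRNA replicate 1.

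**Figure D2:**
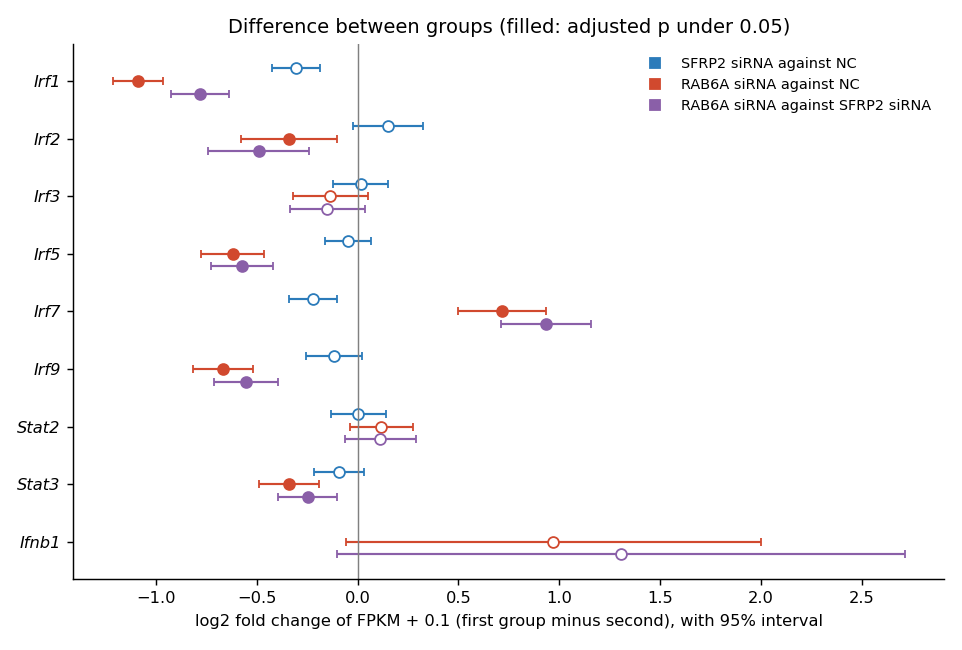
Difference between groups on the log2(FPKM + 0.1) scale (x axis) with its 95% interval (bars) for the 9 genes (y axis) in 3 comparisons (colors). Filled points have an adjusted p under 0.05. Irf7 is filled to the right of 0 in both comparisons of RAB6A siRNA, and Irf1, Irf2, Irf5, Irf9 and Stat3 to the left. Ifnb1 has the widest intervals and no point for SFRP2 siRNA against NC.

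Within a group, the 9 genes held a clear order of FPKM. With NC siRNA the order was Irf7, Irf5, Stat2, Irf1, Stat3, Irf9, Irf3, Irf2 and Ifnb1, and Irf3 (6.66 ± 0.276 FPKM) and Irf2 (6.50 ± 0.367 FPKM) were the neighbours whose libraries overlapped. With SFRP2 siRNA the mean of Irf2 (7.23 ± 0.513 FPKM) was above that of Irf3 (6.73 ± 0.213 FPKM), again with overlap. With RAB6A siRNA further neighbours met. Irf5 (44.0 ± 3.05 FPKM) and Stat2 (43.9 ± 3.21 FPKM) overlapped, as did Irf1 (14.7 ± 0.513 FPKM) and Stat3 (14.0 ± 0.733 FPKM).

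Of the summed FPKM of the 6 IRF genes, Irf7 made up 52.9% ± 0.863 with NC siRNA, 50.8% ± 0.671 with SFRP2 siRNA and 74.6% ± 3.32 with RAB6A siRNA (SD, n = 3 each). In single libraries its share was 52.0%, 53.0% and 53.7%, then 51.0%, 51.3% and 50.0%, then 76.9%, 76.1% and 70.8%. The summed FPKM of the other 5 was 124 ± 2.31, 116 ± 3.08 and 77.3 ± 3.93 in the same order of groups. The ratio of Irf7 to Irf1 was 4.44 ± 0.216 with NC siRNA, 4.71 ± 0.0786 with SFRP2 siRNA and 15.6 ± 1.34 with RAB6A siRNA, and that of Irf7 to Irf3 was 20.96 ± 1.71, 17.7 ± 0.221 and 38.2 ± 7.17. These ratios are within a library and do not depend on its total, but their size depends on the exon lengths used. Irf8 is another abundant IRF, and with it added to the 6 genes the share of Irf7 was 44.3% ± 0.524, 42.9% ± 0.318 and 60.1% ± 3.56, while the summed FPKM of the genes other than Irf7 was 175 ± 3.08, 159 ± 5.54 and 151 ± 7.88.

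**Figure D3:**
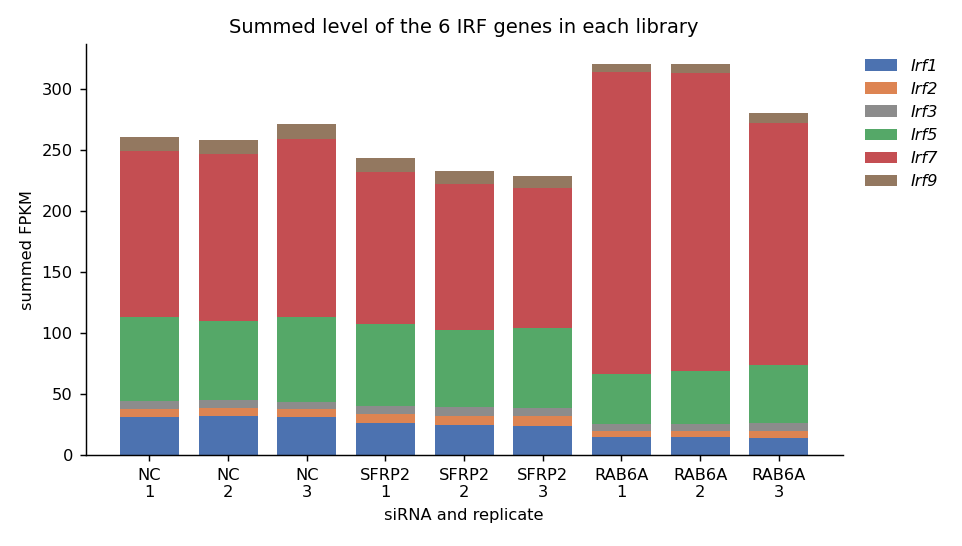
Summed FPKM (y axis, from 0) of the 6 IRF genes in each of the 9 libraries (x axis), with a color for each gene. The Irf7 segment makes up 70.8% to 76.9% of the bar in the RAB6A siRNA libraries and 50.0% to 53.7% in the others.

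The SFRP2 siRNA comparison, the one the study was designed around, gave no called gene among the members. Of 8 members that passed the filter of a mean FPKM of 0.5, 0 had an adjusted p under 0.05 in limma's test, as for 0% of all 12017 genes. The study itself reported differentially expressed genes in RAW264.7 cells with SFRP2 siRNA. It used a count model, unlike the test here, and a fold threshold, which can only lower a count. Voom on recovered reads, the nearest setting run here, called 41 genes. Of these, 2 also passed an absolute log2 fold change of 1. The cause of the difference from the study was not tested. Among the members, 2 had an unadjusted p under 0.05 in limma's test, against 18.5% of all genes. Voom called 0 members, with Irf1 not in that fit because its reads could not be recovered. The 2 members with an unadjusted p under 0.05 were Irf1 (25.4 ± 1.29 against 31.4 ± 0.368 FPKM, log2 fold change -0.31, adjusted p = 0.163 from limma) and Irf7 (119 ± 4.66 against 139 ± 5.37 FPKM, log2 fold change -0.22, adjusted p = 0.175 from limma). In both, all 3 SFRP2 siRNA libraries lay below all 3 controls, which held for 24.7% of all genes in one direction or the other. For the other tested members the interval of the log2 fold change was -0.02 to 0.33 for Irf2, -0.12 to 0.15 for Irf3, -0.16 to 0.07 for Irf5, -0.26 to 0.02 for Irf9, -0.13 to 0.14 for Stat2 and -0.21 to 0.03 for Stat3. Ifnb1 was under the filter, at 0.381 ± 0.325 against 0.443 ± 0.225 FPKM (exact two-sided permutation test, p = 0.8, where 3 libraries against 3 cannot go below 0.1).

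The RAB6A and SFRP2 siRNA groups were also compared directly, since both comparisons with NC siRNA share the NC siRNA libraries. Irf7 was higher with RAB6A siRNA, and Irf1, Irf2, Irf5, Irf9 and Stat3 were lower, against 37.6% and 35.8% of all 12764 genes tested. The log2 fold change was 0.94 for Irf7 (interval 0.71 to 1.16, limma, adjusted p = 9.7e-05) and -0.78 for Irf1 (interval -0.93 to -0.64, adjusted p = 2.9e-05). It was -0.57 for Irf5, -0.55 for Irf9, -0.49 for Irf2 and -0.25 for Stat3, with adjusted p-values from 1.9e-04 to 0.0089 in limma. No member passed the fold threshold of 1, which 31.1% of all genes did. The call of Stat3 was lost under quantile normalization (adjusted p = 0.063, the highest of 17 alternatives). Irf3 (log2 fold change -0.15, adjusted p = 0.121), Stat2 (0.11, adjusted p = 0.209) and Ifnb1 (1.31, interval -0.10 to 2.71, adjusted p = 0.083) did not pass. Ifnb1 met the mean FPKM filter here only through the RAB6A siRNA group (0.947 against 0.381 FPKM). Its exact two-sided permutation test gave p = 0.2. In limma, Ifnb1 passed without SFRP2 siRNA replicate 1 (adjusted p = 0.024) and with voom, and its adjusted p was 0.024 to 0.288 over 16 alternatives. Its log2 fold change was 0.50 to 1.82 over them, with 0.50 at a pseudocount of 1, 0.64 under quantile normalization, 0.71 without SFRP2 siRNA replicate 3 and 0.86 with the GC and length correction.

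Among other IRF and STAT genes with RAB6A siRNA against NC siRNA, Irf8, which sets macrophage identity, rose from 51.3 ± 3.35 to 74.0 ± 6.59 FPKM (log2 fold change 0.53, limma, adjusted p = 6.9e-04). Stat6, which relays IL-4, fell from 38.4 ± 1.43 to 19.7 ± 1.52 FPKM (-0.96, adjusted p = 1.4e-05). Irf4, a factor of alternative activation, fell by 1.90 on the log2 scale, from 1.32 to 0.285 FPKM, and Stat5a fell by 0.37. Stat5b was 5.75 ± 0.0985 against 5.07 ± 0.360 FPKM (adjusted p = 0.054), and Stat4 lay below 0.1 FPKM in every library.

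Interferon genes other than Ifnb1 were hardly present. Of 20 searched, 4 were in the values (Ifna4, Ifnk, Ifne and Ifnz), and none passed the filter. Their highest value in any library was 0.131 FPKM, for Ifnk with RAB6A siRNA. Ifna4 and Ifne were listed at 0 in all NC and SFRP2 siRNA libraries.

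The cytokines that act through STAT3 passed the test in all 7 cases with RAB6A siRNA against NC siRNA, 4 higher and 3 lower, against 37.6% and 36.5% of all genes tested. Il11 rose from 0.615 ± 0.154 to 10.5 ± 0.128 FPKM (log2 fold change 3.91, limma, adjusted p = 1.5e-06), Csf3 from 618 ± 27.1 to 1179 ± 129, Il27 from 131 ± 4.97 to 238 ± 9.04, and Lif from 9.95 ± 0.411 to 16.3 ± 1.77 FPKM. Il10, the anti-inflammatory member, fell from 3.62 ± 0.345 to 0.488 ± 0.169 FPKM (-2.70, adjusted p = 3.1e-05), Il6 from 95.9 ± 9.77 to 49.8 ± 4.37 and Osm from 23.3 ± 2.39 to 19.4 ± 2.14 FPKM (adjusted p = 0.049). The libraries of Osm overlapped between the groups, and under quantile normalization 4 of the list were higher and 2 lower. The median log2 fold change of the list was 0.70, against 0.03 for all genes, and 0.26 with the GC and length correction.

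Sensors, adaptors and kinases upstream of Ifnb1 were mostly lower. Of 24 tested against NC siRNA, 3 rose and 18 fell, against the same 37.6% and 36.5% of all genes, with a median log2 fold change of -0.56. Tlr7 and Tlr9, endosomal receptors for RNA and DNA, fell the most, from 41.2 ± 2.55 to 4.08 ± 0.954 FPKM (-3.33, limma, adjusted p = 2.3e-06) and from 23.4 ± 1.75 to 3.26 ± 0.664 FPKM (-2.82, adjusted p = 2.9e-06). Ikbke and Tbk1, the kinases that phosphorylate IRF3 and IRF7, rose by 0.43 and 0.32 on the log2 scale (adjusted p = 0.0027 and 0.0014 from limma). In the receptors and Janus kinases, 5 of 12 rose and 6 fell (median -0.16, and 0.04 with the GC and length correction). Jak3 rose from 3.40 ± 0.401 to 14.6 ± 1.52 FPKM (2.07) and Ifnar1, a chain of the type I interferon receptor, from 7.13 ± 0.239 to 13.3 ± 0.737 FPKM (0.89). Il6ra and Ifngr1 fell by 0.87 and 0.42 on the log2 scale.

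Targets of ISGF3 did not follow a single direction. Of 36 interferon-stimulated genes tested, 7 rose and 21 fell with RAB6A siRNA against NC siRNA (median -0.40). Of all genes tested, 37.6% were called higher and 36.5% lower. Ifit1, an antiviral RNA-binding protein, fell from 38.7 ± 1.11 to 5.77 ± 0.632 FPKM (-2.73, limma, adjusted p = 9.9e-07) and Ifit3b fell by 2.39 on the log2 scale. Bst2, the tetherin that holds budding virus, rose from 228 ± 12.6 to 452 ± 81.5 FPKM (0.97, adjusted p = 3.5e-04) and Isg20, an exonuclease, rose by 0.58.

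STAT3 targets rose in 8 of 14 cases and fell in 4, against 37.6% and 36.5% of all genes (median 0.33, and 0.22 under quantile normalization). The NF-kB cofactor Bcl3 and the repressor Etv3 rose by 1.28 and 1.17 on the log2 scale, and Cebpd and Tnfaip3, which ends NF-kB signaling, fell by 1.99 and 1.00 (limma, adjusted p from 6.8e-07 to 4.6e-06). Of 17 negative regulators of these pathways, 5 rose and 6 fell (median -0.03, and 0.05 under quantile normalization). Cish, a feedback inhibitor of STAT5, rose from 0.504 ± 0.1005 to 2.66 ± 0.0619 FPKM (2.20, adjusted p = 1.4e-05) and Atf3 rose by 1.09, while Trim21 and Ptpn11 fell by 2.17 and 1.06. The plot of pathway genes shows each gene of these lists.

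**Figure D4:**
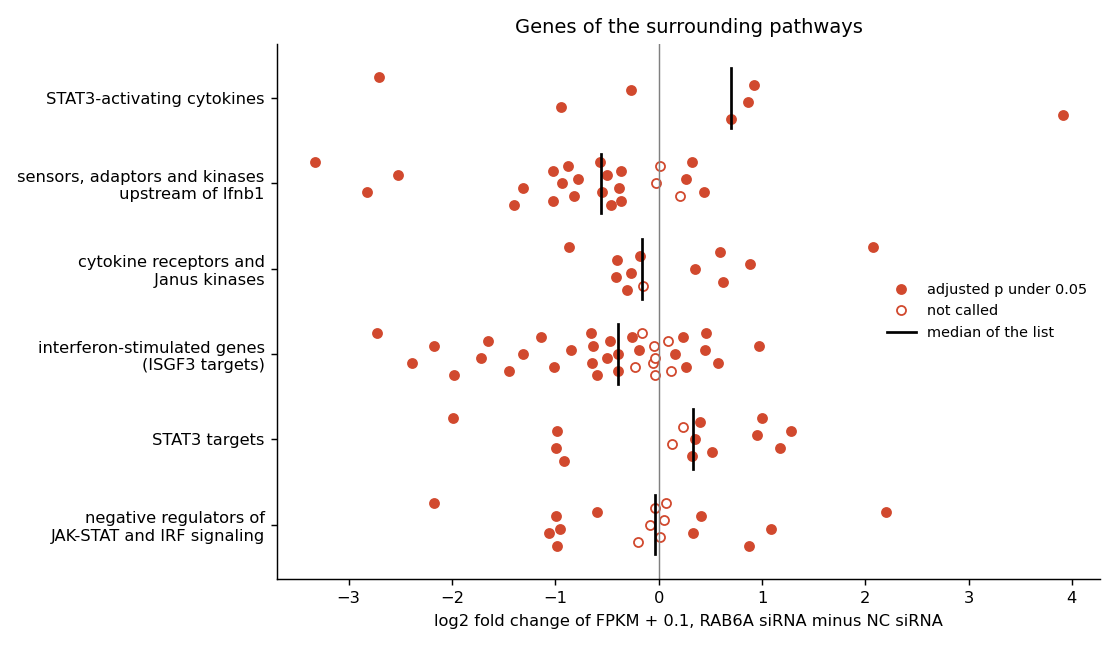
Log2 fold change of RAB6A siRNA against NC siRNA (x axis) of every gene tested in 6 pathway lists (y axis). A point is a gene, placed vertically only to keep points apart, filled at an adjusted p under 0.05, and the black line is the median of the list. The median is -0.56 for the genes upstream of Ifnb1 and 0.33 for STAT3 targets.

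With RAB6A against SFRP2 siRNA the counts of genes higher and lower were 4 and 17 of 24 upstream of Ifnb1, 5 and 5 of 12 receptors and kinases, 9 and 20 of 36 interferon-stimulated genes, 8 and 4 of 14 STAT3 targets and 4 and 7 of 17 negative regulators. The STAT3-activating cytokines gave 4 and 2 of 7. Of all 12764 genes tested in this comparison, 37.6% were higher and 35.8% lower. With SFRP2 against NC siRNA, 0 of the 105 genes of the lists plotted by pathway that were tested had an adjusted p under 0.05 in limma's test, and 27 (25.7%) had an unadjusted p under 0.05, against 18.5% of all genes. Voom on recovered reads called 2 of them, both interferon-stimulated and named here after their values were seen. Bst2 was 176 ± 12.3 against 228 ± 12.6 FPKM (voom log2 fold change -0.38, adjusted p = 0.041) and Oas1a was 52.0 ± 1.88 against 65.2 ± 3.56 FPKM (-0.32, adjusted p = 0.044). Among the 36 interferon-stimulated genes, 12 had an unadjusted p under 0.05 and 0 an adjusted p under 0.05 from limma.

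Genes whose level over the 9 libraries was most like that of each member were named by Pearson's r of log2(FPKM + 0.1) among 10129 other protein-coding genes. The libraries fall into groups, with RAB6A siRNA apart, so that r mostly reads that split and is a description. For Irf1 they were Ticam2, the adaptor that links TLR4 to TRIF, Thop1 and Pak1ip1 (r = 0.994 each), and 2581 genes had an r over 0.9. For Irf7, Dvl1 and Bst2 were among them (r = 0.998 and 0.997). For Irf5 they were Scly, Tnf and Arid1b (0.998 each), and for Irf9 Nr1h3, Ralb and Rinl (0.996, 0.996 and 0.995). Irf2 was closest to mt-Nd5, Tab3 and Ncoa6 (0.995, 0.985 and 0.984) and Stat3 to Casp9, Fam78a and Zmiz2 (0.990, 0.983 and 0.982). The 3 members that were not called had fewer close genes. Irf3 was nearest to Plek, Gtf3a and Nap1l1 (0.951, 0.948 and 0.943), Stat2 to Rasal3, Macrod1 and Ythdf3 (0.949, 0.948 and 0.925), and Ifnb1 to Fam107b, Mgp and Krt18 (0.942, 0.935 and 0.930), with 39, 5 and 6 genes over 0.9.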

How the data were processed

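RNA of 9 RAW264.7 libraries was sequenced as paired-end mRNA libraries, for which the authors deposited FPKM values of each gene. The submitters' processing notes name HISAT2, featureCounts and Subread, and versions and genome build are not given in the sources used here. Of 28137 identifiers, 27533 were named from GENCODE M21 (GRCm38). FPKM multiplied by exon length gave whole reads within 0.03 in all 9 libraries for 27084 genes (98.4% of those named), and Irf1 was not among them. Intervals from limma cover the spread between libraries. Groups were compared with limma 3.58.1 in R 4.3.3 on log2(FPKM + 0.1), a scale that understates changes of low genes (lmFit, eBayes with a trend, Benjamini-Hochberg adjustment), where FPKM averaged 0.5 or more in the 6 libraries compared. The fit was also run on simulated counts in which few genes changed. That setting differs from the RAB6A siRNA comparisons, and no call rests on it. The study's methods give a count model. The deposited values are FPKM, so that the test was made on a log scale, and the reads recovered from them were fitted with voom as an alternative. Ifnb1 had an exact permutation test in scipy 1.17.1 in each comparison. Alternatives were the pseudocounts 1 and 0.01, no filter, a minimum average FPKM of 1, eBayes without a trend, quantile normalization, median-of-ratios scaling, the replicate block, a single fit of all 9 libraries, voom on recovered reads, a spline correction for GC content and length with 5 degrees of freedom, and each library left out. The members and gene lists were chosen with earlier results of these data known. From each list the 2 highest and 2 lowest called log2 fold changes with RAB6A siRNA against NC were named, or the whole list where it had 8 genes or fewer. Some genes and lists covered by this rule are not reported here.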

Additional observations from a re-analysis of the deposited data

How the results depend on the processing

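With RAB6A siRNA against NC, Irf1, Irf5, Irf7, Irf9 and Stat3 kept their call and direction under every alternative that tested them, and Irf1 was not in the voom fit. The number of members called was 5 to 7 against NC and 6 to 8 against SFRP2 siRNA over all alternatives, and 5 to 6 and 6 to 7 with each library left out. Among members, Ifnb1 was also called against NC with the replicate block (adjusted p = 0.015) and against SFRP2 siRNA with voom (adjusted p = 0.045). Against SFRP2 siRNA, Irf3 (adjusted p = 0.015) and Stat2 (adjusted p = 0.038) were called with the GC and length correction, and Stat2 under quantile normalization (adjusted p = 0.025). The cause was not tested. Over 4 other scalings and fits against NC, the interferon-stimulated genes gave 5 to 9 higher and 19 to 21 lower, and the genes upstream of Ifnb1 2 to 5 higher and 18 lower. Of all genes, 37.6% were higher and 36.5% lower in the fit reported above. With SFRP2 siRNA against NC, 0 genes were called, and voom on recovered reads called 41 (7 higher and 34 lower). Without NC siRNA replicate 1 there was 1, and each library left out gave 0 to 1. In this comparison, log2 fold changes that were not called turned sign for Irf5 with the GC and length correction (0.072), for Irf3 in 2 of 6 fits with a library left out (-0.018 without NC siRNA replicate 3 and -0.00099 without SFRP2 siRNA replicate 1, in a range from -0.018 to 0.042) and for Stat2 in 3 of 6 (-0.017, -0.012 and -0.031 without NC siRNA replicate 2 and SFRP2 siRNA replicates 1 and 2, in a range from -0.031 to 0.054). At a pseudocount of 1, genes that also passed the fold threshold fell from 3829 to 2389 against NC and from 3972 to 2501 against SFRP2 siRNA. Replicate numbers did not pair the libraries (correlation of deviations -0.085 to 0.048 for the same number and -0.116 to 0.082 for different numbers), and with the replicate block 9103 genes were called with RAB6A siRNA against NC, in place of 9418, and 0 with SFRP2 siRNA. Of the members, Ifnb1 had the fewest reads, at 2 to 36 per library, and is the one that depth limits most.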
